A study of Mus musculus with 120 samples.

Results

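The genes described here are Ly6d, which encodes a small GPI-anchored surface protein of the Ly6 family, and 5 keratin genes, Krt23, Krt8, Krt18, Krt7 and Krt19, 6 of 24882 rows of a table of mouse liver RNA. They were chosen by symbol with their differences between diets in these same libraries already known. Every HF/HS minus control value of these 6 genes, also by sex or strain, is therefore a description with no test, and tests are given only for sex within a diet, for the strains on the control diet and for correlations within groups. The mice came from 10 Collaborative Cross strains (CC003, CC011, CC013 and CC019, then CC032, CC040 and CC041, and last CC042, CC043 and CC060), inbred lines that mix several founder genomes. In each strain, males and females received for 12 weeks either a high-fat, high-sucrose diet (HF/HS, with 42% of its energy from milkfat, 0.2% cholesterol and over 30% sucrose) or a control diet of matched ingredients with less fat and sucrose. No allele, transgene or other agent is named in the labels, and all groups share the organ and the time on diet. A group is 1 strain, sex and diet. The labels give 3 liver libraries in each of the 40 groups, and no label ties these 3 to different animals. The p-values below therefore cover only the variation from library to library, which may be technical.

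Keratins are intermediate filament proteins that assemble from pairs of a type II chain (Krt7, Krt8) and a type I chain (Krt18, Krt19, Krt23). Hepatocytes hold Krt8 and Krt18, and bile duct cells hold Krt7 and Krt19 besides. Krt8 and Krt18 are the keratins of the protein aggregates known as Mallory-Denk bodies, and Krt23 is known in mouse liver as a keratin with little expression at rest and more after injury. Ly6d is known in mice as a mark of lymphoid progenitors that turn to the B lineage and of stratified epithelium.

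Krt8 and Krt18 are neighbours. On mm10, Krt8 lies on chromosome 15 at 101996710 to 102004342 on the minus strand (9 exons) and Krt18 at 102028215 to 102032026 on the plus strand (7 exons), 23.9 kb apart, so that they are transcribed away from each other. Krt7 lies 569.0 kb from Krt8, at 101412402 to 101427806 of chromosome 15 (plus strand, 9 exons), and Ly6d at 74762055 to 74763567 of the same chromosome (minus strand, 3 exons). Krt23 (99477972 to 99493110, 8 exons) and Krt19 (100140810 to 100145919, 6 exons) are on the minus strand of chromosome 11, 648.0 kb apart. An annotated lincRNA on the opposite strand overlaps Krt8, and an antisense gene overlaps Krt7. The counting is not stated to use strand, so reads from these overlaps cannot be told apart.

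The 250 bases before the start sites of Krt8 and Krt18 are shown because these neighbours had the highest within-group correlation of the 15 pairs below. Both run 5′ to 3′ on the gene's own strand, from RefSeq on GRCm38.p6 (Krt8 chr15:102004343-102004592, Krt18 chr15:102027966-102028215), and capitals mark the nuclear receptor core site AGGTCA.
Krt8: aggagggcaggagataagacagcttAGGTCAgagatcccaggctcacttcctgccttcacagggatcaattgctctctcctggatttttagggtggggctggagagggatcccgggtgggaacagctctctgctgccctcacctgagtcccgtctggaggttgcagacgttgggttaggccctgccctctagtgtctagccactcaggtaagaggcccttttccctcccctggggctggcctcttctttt
Krt18: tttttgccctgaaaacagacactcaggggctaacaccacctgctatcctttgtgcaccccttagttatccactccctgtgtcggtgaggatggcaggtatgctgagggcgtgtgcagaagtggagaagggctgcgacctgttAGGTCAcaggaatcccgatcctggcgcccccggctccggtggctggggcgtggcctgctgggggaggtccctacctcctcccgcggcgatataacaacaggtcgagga
The core site begins 225 bases before the RefSeq start of Krt8 and 108 bases before that of Krt18. GENCODE puts the start of Krt8 at 102004482 and that of Krt18 at 102028180, both inside these windows. It was searched on both strands. So were the TATA box (TATAAA), the GC box (GGGCGG), the CCAAT box, the AP-1 site (TGANTCA) and the STAT site (TTCNNNGAA). AGGTCA is in 14% of 32851 mouse promoters of that length, so it is a common string. The other strings, found in 12.4% (TATA box), 32.7% (GC box), 33.8% (CCAAT box), 6.75% (AP-1 site) and 7.02% (STAT site) of promoters, were in neither window. RefSeq windows were matched for 4 of the 6 genes. The one of Krt7 held 4 GC boxes, and the one of Krt23 held none of the strings. The GENCODE start of Krt7, 101411043, lies before its whole window, and that of Krt23, 99493137, lies inside its window. G and C made up 58.0% of the Krt8 window and 60.4% of the Krt18 window, against 52.8% for Krt23 and 66.0% for Krt7. A match is a description of the letters and not of a bound site.

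Values are FPKM, fragments scaled by transcript length and library size, that the authors rescaled so that the 75th percentile of every library is about 10, and no read depth is given with them. The columns of CC040 female HF/HS 1 and CC040 female control 3 are identical in all 24882 rows and were left out, which leaves 59 HF/HS and 59 control libraries. The values of CC003 and CC060 libraries stand apart from those of the other strains, and no label says why. The values of a CC003 library sum to 3192044 to 4629868, with a median of 755300 for the small nucleolar RNA Snord104, against sums of 943592 to 1365518 and a median of 37120 in the 8 other strains. CC060 libraries sum to 926928 to 1986957, with a median of 0 for Snord104 and of 68.05 for Malat1, against 1232 for Malat1 in those 8. For these strains, strain cannot be told apart from how the libraries were made or processed. Several results that include them are therefore also given without them. The labelled tissue had its hepatocyte genes: all 11 listed ones passed the filter of a mean of at least 1. In bulk liver, fewer cells of a type and less RNA per cell cannot be told apart.

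Ly6d was higher on the HF/HS diet in 5 strains, with no overlap between the libraries of the diets within either sex. In CC032 it reached 168, 148 and 190.0 in HF/HS females, against 11.5, 6.31 and 2.55 in control females. CC032 males had 62.5, 73.3 and 80.3 on HF/HS, against 4.95, 26.1 and 2.11 on control. The values of the CC032 females are the highest of Ly6d in the series, and no control library of the strain came near the HF/HS ones. In CC043, Ly6d was 30.4, 14.4 and 36.1 in HF/HS females, against 0.964, 1.52 and 1.65 in control females. CC043 males had 13.1, 7.04 and 23.0 on HF/HS, against 0.63, 0.149 and 0.213 on control. Both sexes of CC040, CC041 and CC042 likewise had every HF/HS library above every control library, so the diets did not overlap in 10 of the 20 strain-sex groups, always with HF/HS above. In CC040 females this rests on 2 libraries per diet, 17.7 and 5.44 against 1.64 and 1.26, and 2 libraries separate more easily than 3. Over all genes tested, such a separation was seen in 11.1% of gene and group combinations. For diet over all groups, 32.6% of genes were called. Since the diet contrast served to choose the genes, nothing is read from that difference.

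The other strains behaved unevenly. In CC003 females Ly6d was 1.69, 66.7 and 15 on HF/HS, against 1.07, 2.15 and 0 on control, and in CC011 females it was 89.0, 18.0 and 4.45 on HF/HS, against 1.63, 10.3 and 1.1 on control. Males of those strains had no such libraries: CC003 males stayed between 1.1 and 2.22 on HF/HS and between 1.21 and 3.77 on control, and CC011 males between 0.451 and 1.2 on HF/HS and between 0.149 and 1.8 on control. That difference between the sexes of single strains was not tested. CC060 females had 10.7, 7.5 and 8.98 on HF/HS, against 75.2, 5.22 and 19 on control, a difference of -1.09 ± 0.78 (log2, SE). CC060 males had 6.98, 6.09 and 13.1 on HF/HS, against 2.4, 40.7 and 5.19 on control, a difference of -0.05 ± 0.78. The CC060 groups overlap, and single control libraries at 75.2 and 40.7 lie far above the rest. Over all libraries Ly6d averaged 23.1 ± 40 on HF/HS (median 7.04) and 5.48 ± 11.5 on control (median 1.8; SD, n = 59 each). It reached 10 in 25 of 59 HF/HS libraries and in 8 of 59 control libraries. The difference of group means, on the scale log2(value + 1), was 1.44 ± 0.18 (SE).

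Krt23 was higher on HF/HS by 1.14 ± 0.15 (log2, SE), with averages of 7.86 ± 7.09 on HF/HS and 3.14 ± 5.1 on control (SD, n = 59 each), and medians of 5.86 on HF/HS and 1.26 on control. CC060, where Ly6d was not higher, had the widest gap: females had 5.86, 15.6 and 13.5 on HF/HS, against 1.53, 2.51 and 0.612 on control. CC060 males had 8.74, 15.4 and 15.6 on HF/HS, against 0.858, 0.188 and 1.49 on control. In CC042 males Krt23 was 9.24, 12.1 and 7.8 on HF/HS, against 0.488, 0.244 and 0.287 on control. The diets did not overlap in these 3 groups. In all, HF/HS libraries lay above control libraries in 11 of 20 groups and below them in 0, and the HF/HS mean was the higher one in 18 of 20. Over all genes tested, 11.1% of gene and group combinations lay above and 10.6% below. Nothing is read from these counts, since the diet contrast served to choose the genes. CC011 females were mixed, with 0.0861, 8.17 and 17.7 on HF/HS, against 31.6, 0.558 and 15.2 on control: the lowest Krt23 value on either diet and the highest control value are both in that strain and sex. The library at 0.0861 is the one in which Ly6d reached 89.0.

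**Figure D1:**
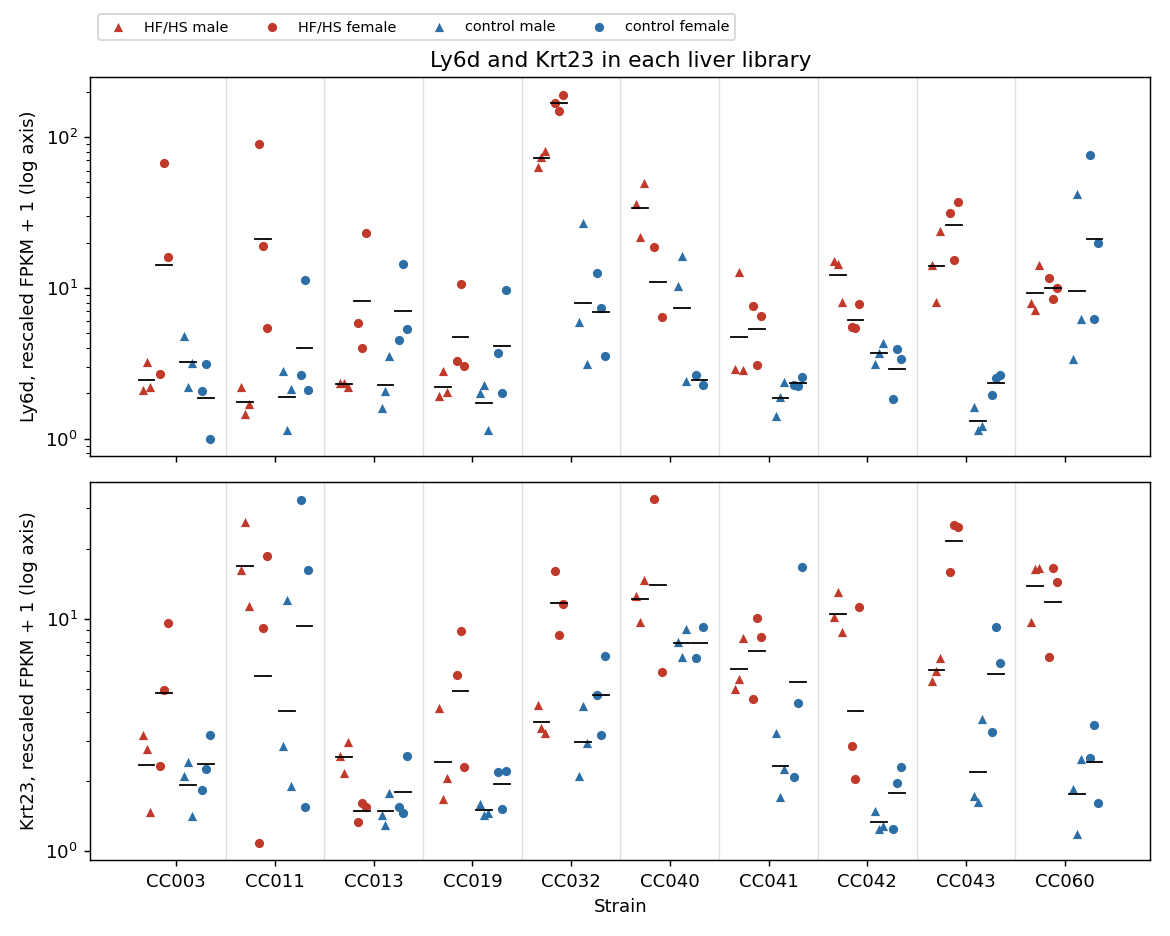
Ly6d (top) and Krt23 (bottom) in every library, as rescaled FPKM + 1 on a log axis, by strain, with HF/HS in red left of control in blue and males (triangles) left of females (circles). Bars are means on the log scale. CC032 HF/HS females hold the highest Ly6d values, 148 to 190.0, while CC060 has high Ly6d in some control libraries and its Krt23 is higher on HF/HS in both sexes.

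Krt8, the type II keratin of hepatocytes, was among the well expressed genes and averaged 209 ± 71.3 on HF/HS and 152 ± 50.5 on control (SD, n = 59 each). The difference was 0.44 ± 0.055 (log2, SE), smaller than for Ly6d and Krt23 but with a small error. In CC032 females Krt8 was 319.5, 300.0 and 201 on HF/HS, against 130.4, 154 and 148 on control. In CC040 males it was 308, 272 and 349 on HF/HS, against 168, 169 and 160.3 on control. Neither pair of groups overlapped. The diets did not overlap in 10 of 20 groups, always with HF/HS above, and the HF/HS mean was higher in 17. CC040 females, among the 10, had only 2 libraries per diet. Over all genes tested, HF/HS lay above in 11.1% of gene and group combinations. Since the diet contrast served to choose the genes, nothing is read from these counts either.

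Krt18, the type I partner, averaged 183 ± 62.0 on HF/HS and 161 ± 85.6 on control (SD, n = 59 each), a difference of 0.24 ± 0.060 (log2, SE). It split by strain. CC043 females had 135, 121 and 169 on HF/HS, against 103, 60.6 and 60.7 on control. CC043 males had 171, 130.1 and 229.9 on HF/HS, against 93.7, 101 and 51.5 on control. CC032 females had 264, 233 and 144 on HF/HS, against 109, 135 and 127 on control, so HF/HS lay above in both strains. CC060 females were lower on HF/HS with no overlap, at 153, 137 and 129.7, against 209, 174 and 196 on control. CC060 males had 209.7, 235 and 266 on HF/HS, against 211, 313 and 694 on control, and the control library at 694 is the highest Krt18 value of the series. HF/HS libraries lay above in 5 groups and below in 2, where 11.1% of gene and group combinations lay above and 10.6% below over all genes tested. The HF/HS mean was higher in 12 of 20 groups.

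The level of Krt8 relative to Krt18 was highest in CC043 on both diets and lowest in CC060 on the control diet. As log2 of Krt8 over Krt18, both per length, it was 0.66 ± 0.09 on HF/HS and 0.86 ± 0.20 on control in CC043 (SD, n = 6 each), so Krt8 was the higher transcript in every CC043 library. In CC060 it was -0.15 ± 0.15 on HF/HS and -0.72 ± 0.50 on control, and in CC041 -0.08 ± 0.18 on HF/HS and -0.53 ± 0.13 on control. Over all libraries it averaged 0.18 ± 0.33 on HF/HS and -0.02 ± 0.53 on control (n = 59 each). Without CC003 and CC060, the HF/HS minus control difference was 1.72 for Ly6d, 1.02 for Krt23, 0.50 for Krt8 and 0.35 for Krt18 (log2).

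**Figure D2:**
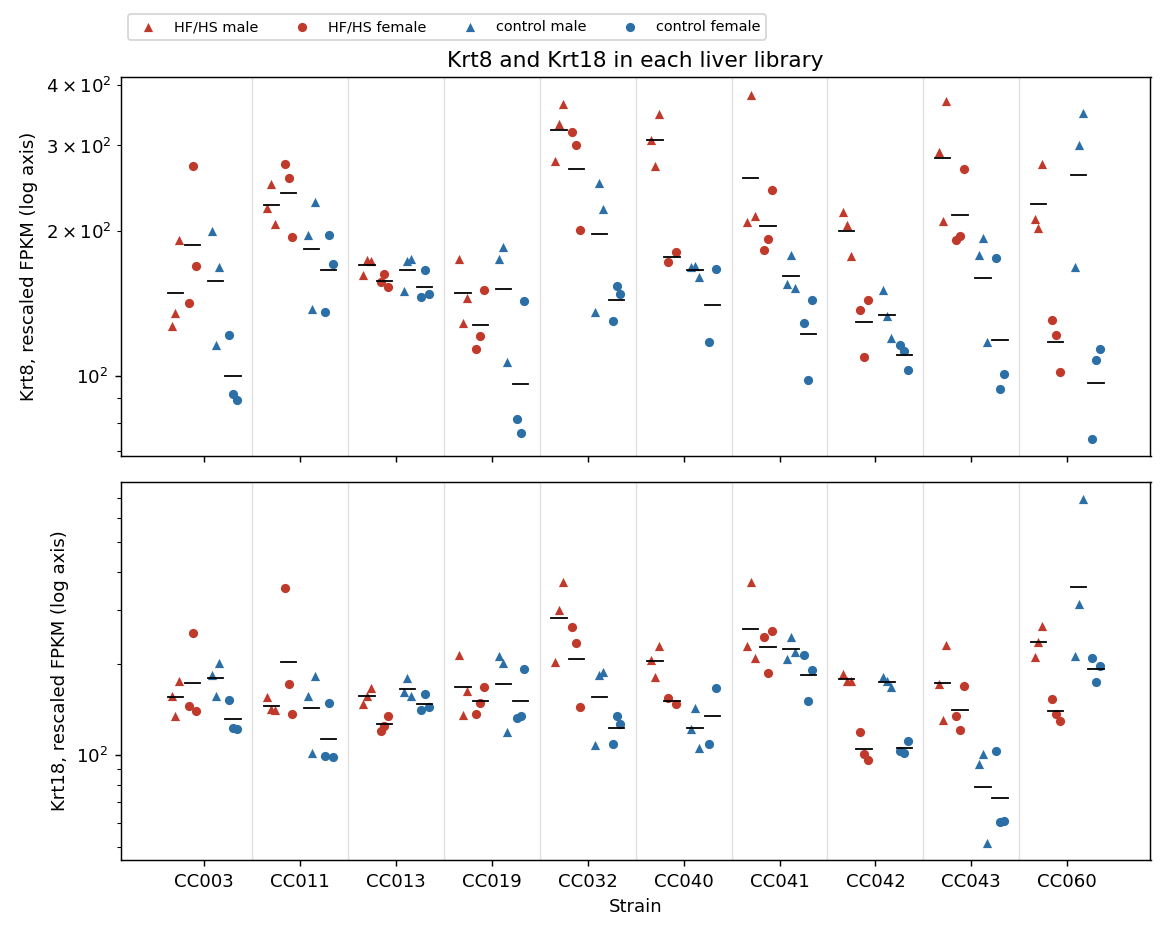
Krt8 (top) and Krt18 (bottom) in every library, as rescaled FPKM on a log axis, laid out by strain, diet and sex, with HF/HS in red left of control in blue and males (triangles) left of females (circles). Bars are means on the log scale. CC043 control libraries have the lowest Krt18 values, down to 51.5, and a CC060 male control library the highest, 694.

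The bile duct keratins were near the floor of the table. Krt7 averaged 0.435 ± 0.242 on HF/HS and 0.397 ± 0.228 on control, and Krt19 0.759 ± 0.471 on HF/HS and 0.639 ± 0.364 on control (SD, n = 59 each). The HF/HS minus control difference was 0.04 ± 0.041 for Krt7 and 0.09 ± 0.053 for Krt19 (log2, SE). Both missed the filter, so 4 of the 6 genes passed it, and values for these 2 come from a fit without a filter. Krt7 is listed at 0 in 8 libraries, all of CC003, and Krt19 in 2, also of CC003. Such a 0 can be a failed estimate. In single groups the diets separated once for Krt7 (HF/HS above in CC060 females) and for Krt19 in CC032 males (above) and CC011 females (below), 1 of 20 groups each. Over all genes without a filter, HF/HS lay above in 8.41% of gene and group combinations and below in 7.54%.

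**Figure D3:**
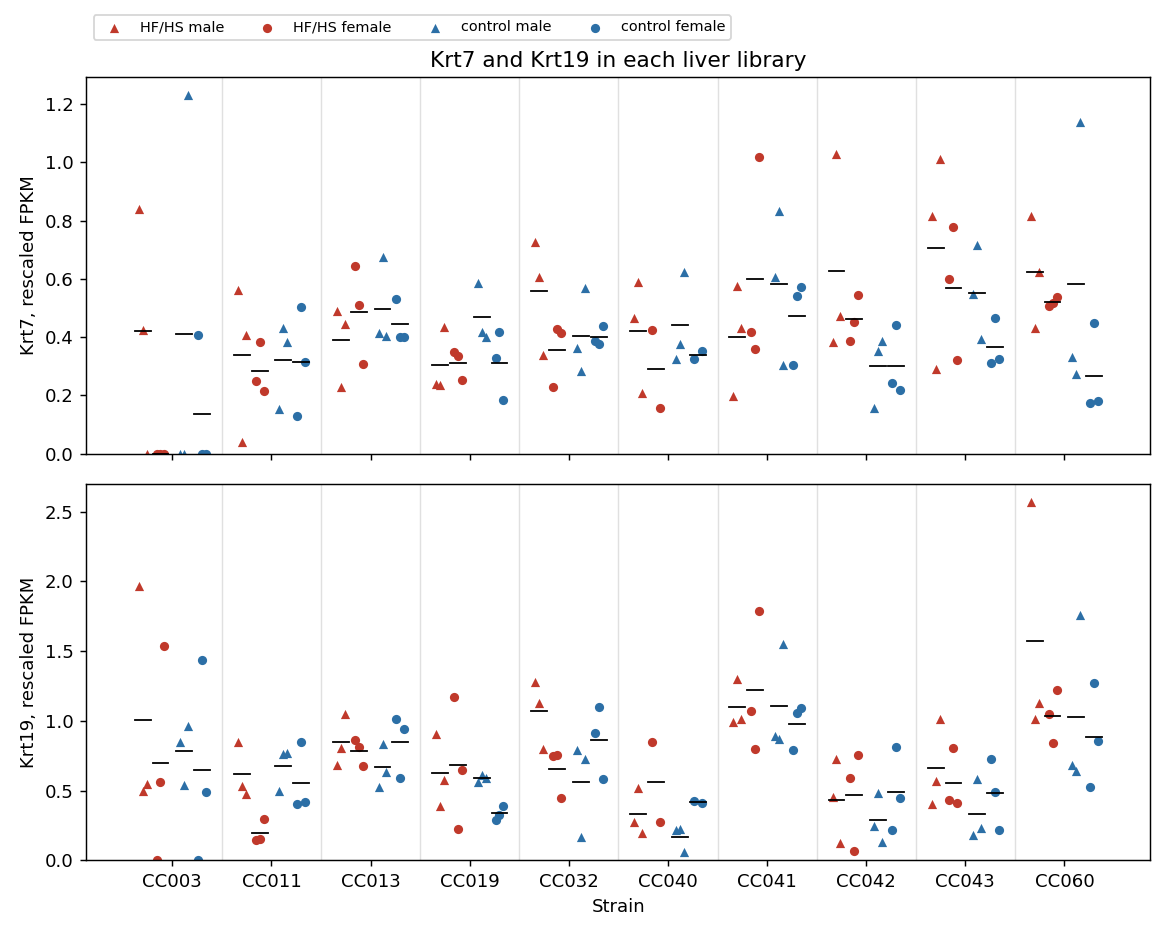
Krt7 (top) and Krt19 (bottom) in every library, as rescaled FPKM on a linear axis from 0, laid out by strain, diet and sex, with HF/HS in red left of control in blue and males (triangles) left of females (circles). Bars are means. Values stay at or below 2.57, the diets overlap in most groups, and the zeros are in CC003.

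Sex was tested within each diet, a contrast that the choice of the genes did not use, although earlier results of these data were known. On the HF/HS diet Ly6d was lower in males, and Krt8 and Krt18 were higher. Ly6d averaged 15.2 ± 22.3 in HF/HS males (n = 30) and 31.2 ± 51.6 in HF/HS females (n = 29), with females higher in 8 of 10 strains and males higher in CC040 and CC042 (-0.88 ± 0.25, limma, adjusted p = 0.00249). That call is lost without CC011 (-0.58, adjusted p = 0.0551) and in a fit of 1 value per strain (adjusted p = 0.144). Krt8 averaged 232 ± 74.5 in males and 185 ± 60.1 in females (0.33 ± 0.078, limma, adjusted p = 0.000293), with males higher in 8 strains. Krt18 averaged 199 ± 61.8 in males and 166 ± 58.7 in females (0.27 ± 0.085, limma, adjusted p = 0.00623), also with males higher in 8. The Krt18 call is lost with 1 value per strain (adjusted p = 0.0743), without CC042 (0.22, adjusted p = 0.0543), and without the HF/HS libraries numbered 3 of females (adjusted p = 0.0572) or of males (adjusted p = 0.0552). Krt23 averaged 6.9 ± 5.93 in males and 8.86 ± 8.11 in females (-0.21 ± 0.21, limma, adjusted p = 0.443). It is called only without CC011 (-0.40, adjusted p = 0.0472). So 3 of the 4 tested genes were called, in a comparison that called 45.4% of all genes. Without CC003 and CC060 the difference was -0.77 for Ly6d (limma, adjusted p = 0.0074) and -0.16 for Krt23 (adjusted p = 0.626). It was 0.33 for Krt8 (limma, adjusted p = 0.000474) and 0.26 for Krt18 (adjusted p = 0.0132).

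On the control diet Krt8 and Krt18 were higher in males and Krt23 was lower. Krt8 averaged 177 ± 52.7 in control males (n = 30) and 126 ± 32.1 in control females (n = 29), with the male mean higher in 10 of 10 strains, a difference of 0.47 ± 0.078 (log2, SE; limma, adjusted p = 3.72e-07). Krt18 averaged 184 ± 109 in males and 137 ± 40.1 in females, with males higher in 9 strains (0.33 ± 0.085, limma, adjusted p = 0.000874). Krt23 averaged 1.96 ± 2.62 in males and 4.36 ± 6.61 in females, with females higher in 9 strains (-0.63 ± 0.21, limma, adjusted p = 0.0115). Ly6d averaged 4.54 ± 8.64 in males and 6.45 ± 14 in females, and the difference of -0.33 ± 0.25 did not pass the test (limma, adjusted p = 0.288). So 3 of the 4 tested genes were called, in a comparison that called 43.5% of all genes. Without CC003 and CC060 the difference was smaller for Krt8, at 0.33 (limma, adjusted p = 0.000529), and for Krt18, at 0.25 (adjusted p = 0.021). It was -0.69 for Krt23 (limma, adjusted p = 0.0189) and -0.37 for Ly6d (adjusted p = 0.222). The Krt23 call is lost without the female control libraries numbered 3 (-0.43, adjusted p = 0.137) and without CC043 (-0.54, adjusted p = 0.0503). Neither Krt7 nor Krt19 passed on either diet (limma without a filter). The adjusted p on HF/HS was 0.271 for Krt7 and 0.276 for Krt19, where 30.9% of genes were called, and on control 0.158 for Krt7 and 0.816 for Krt19, where 28.2% were called.

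The diet difference is given for each sex as a description, since the diet contrast served to choose the genes. Ly6d was higher on HF/HS by 1.17 ± 0.25 in males and by 1.72 ± 0.25 in females, and Krt23 by 1.35 ± 0.21 in males and by 0.93 ± 0.21 in females (log2, SE). The male minus female difference was -0.55 ± 0.36 for Ly6d, 0.42 ± 0.30 for Krt23, -0.15 ± 0.11 for Krt8 and -0.06 ± 0.12 for Krt18. Without CC003 and CC060 it was -0.40 for Ly6d, 0.54 for Krt23, -0.0016 for Krt8 and 0.01 for Krt18. Over all genes tested, 0.877% were called for such a difference between the sexes (limma).

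The strains had unequal diet differences, which are likewise a description with no test. For Ly6d the difference was 3.91 in CC032 and 3.44 in CC043, then 2.18 in CC040, and 0.28 in CC019, 0.11 in CC013 and -0.57 in CC060 (log2, mean of both sexes, SE 0.55, or 0.62 in CC040). For Krt18 it was 1.03 in CC043 and 0.80 in CC032, and -0.53 in CC060 (SE 0.19). Krt23 had another order, led by CC060 at 2.63 and CC042 at 2.08, with CC013 last at 0.25 (SE 0.47). Krt8 ranged from 0.84 in CC043 to 0.04 in CC013 and CC060. Over all genes tested, an F test of 9 contrasts between the strains' diet differences called 5.54% (limma).

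**Figure D4:**
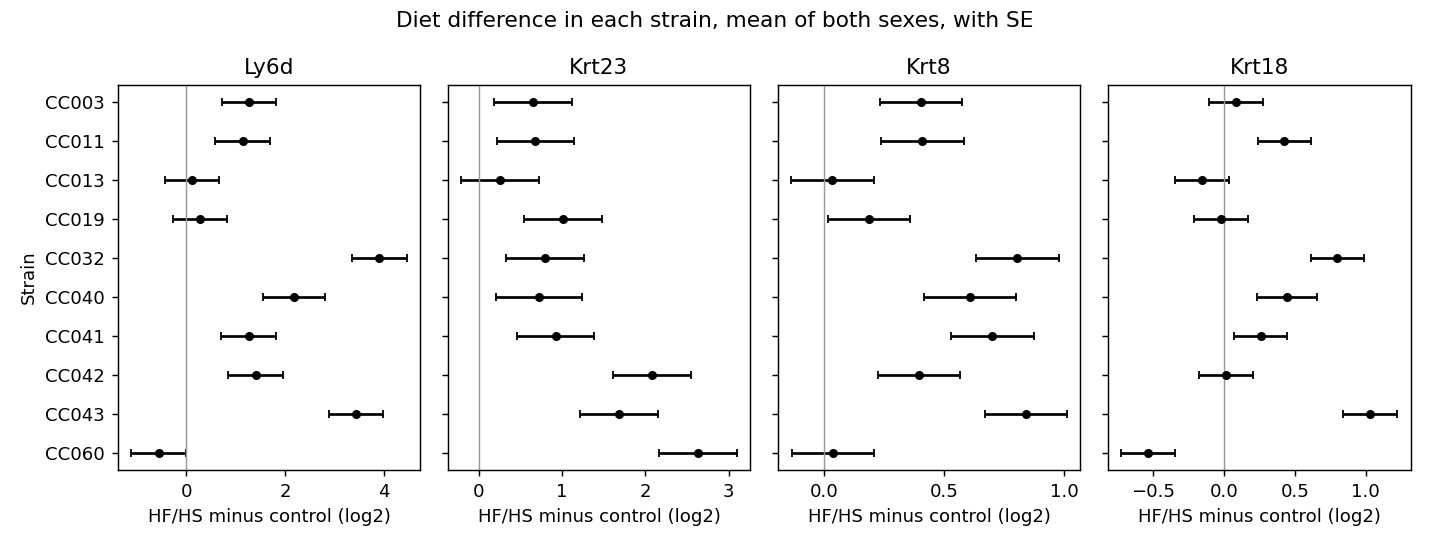
HF/HS minus control difference in each strain (log2, mean of both sexes, bars SE) for Ly6d, Krt23, Krt8 and Krt18, each with its own horizontal scale. CC032 and CC043 lead for Ly6d, Krt8 and Krt18, and CC060 leads for Krt23 and is lowest for Ly6d and Krt18.

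Markers of other cells had unequal sums between the diets in some of these strains. The summed level of 22 bile duct markers, without the keratins, had medians of 187 on HF/HS and 120.1 on control in CC032. It was 155 on HF/HS and 84.8 on control in CC040, and 85.8 on HF/HS and 55.2 on control in CC043, while in CC060 it was 87.2 on HF/HS and 103 on control. Over all libraries that sum ran from 43.9 to 219 on HF/HS and from 44.1 to 252 on control. Among its genes, Cldn4 and Sctr, named after their values were seen, were at 0 in most libraries. Of the 11 tested, 3 rose and 2 fell over all strains, where 17.2% of all genes rose and 15.4% fell. The counts were 1 and 1 with 1 value per strain, and without a filter or with one at a mean of 5 the number that rose was 6 or 1. Spp1, the osteopontin gene, had 54.4 ± 44.6 on HF/HS and 39.5 ± 33.9 on control (0.42 ± 0.079, limma, adjusted p = 1.71e-05, and 0.0522 with 1 value per strain), and the cadherin Cdh1 had 4.34 ± 2.91 on HF/HS and 7.92 ± 4.46 on control (-0.71 ± 0.068, limma, adjusted p = 1.52e-14). The sum of 6 adipose markers had medians of 126 on HF/HS and 31.5 on control in CC032, and of 4.58 on HF/HS and 2.59 on control in CC043. Of the 6, 2 passed the filter, and the others averaged under 1 on both diets and did not all go the same way. Cfd had 15.3 ± 65 on HF/HS and 1.02 ± 2.46 on control (0.51 ± 0.115, limma, adjusted p = 0.000246). Cfd was not called without CC032 (adjusted p = 0.216) or with 1 value per strain (adjusted p = 0.262). Fabp4 had 29.2 ± 17.4 on HF/HS and 23.1 ± 20.1 on control (0.39 ± 0.08, limma, adjusted p = 6.86e-05). For the B lineage, where Ly6d is known, the sum of 15 markers had medians of 51.2 on HF/HS and 144 on control in CC043, and of 6.78 on HF/HS and 21.1 on control in CC032. Most of that sum is Dntt, the nucleotidyl transferase of lymphocyte progenitors, with means of 12.7 on HF/HS and 20.6 on control, and it is the 1 gene of the 15 that passed the filter (-0.70 ± 0.096, limma, adjusted p = 8.89e-09). The others of the 15 averaged under 1 on both diets, with some higher and some lower on HF/HS. Of 13 squamous epithelium markers, 8 were at 0 in most libraries, and their sum stayed between 0.477 and 3.54 on HF/HS and between 0.311 and 5.13 on control. The sum of 8 mesothelium markers was 0.69 to 7.71 on HF/HS and 0.427 to 8.0 on control. Of the 11 hepatocyte genes 1 rose and 6 fell, and 2 rose and 3 fell under quantile normalization. The part of these markers in the results was not tested.

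The order of strains by mean log2 of Ly6d on the HF/HS diet began with CC032 (median 114, range 62.5 to 190.0). Its libraries lay above all of the next strain, CC040 (median 20.8, 5.44 to 48.8). The highest libraries of CC011 (89.0) and CC003 (66.7), lower in this order, lay within the range of CC032. From CC040 through CC043, CC060, CC042, CC011, CC003, CC041 and CC013 to CC019 (median 1.92), each strain overlapped with the next. On the control diet CC060 came first (median 12.1) and CC043 last (median 0.797). Over the 8 strains without CC003 and CC060, the control diet levels differed between strains for Ly6d (F = 2.73, limma, adjusted p = 0.017), Krt23 (F = 6.83, adjusted p = 5.56e-06), Krt8 (F = 2.69, adjusted p = 0.018) and Krt18 (F = 9.22, adjusted p = 7.75e-08), 4 of 4 tested genes where 86.5% of all genes were called. Krt23 had control medians from 6.95 in CC040 and 6.45 in CC011 to 0.387 in CC042. Krt18 had control medians from 211 in CC041 to 77.2 in CC043, whose 6 control libraries ran from 51.5 to 103. In the fit without a filter Krt19 passed (F = 3.35, adjusted p = 0.00646), with control medians from 0.978 in CC041 to 0.222 in CC040, and Krt7 did not (adjusted p = 0.74), against 64.3% of genes called. The Ly6d call is lost without CC032 (F = 1.34, adjusted p = 0.275), without CC043 (adjusted p = 0.0729), and without the female control libraries numbered 1 (adjusted p = 0.129) or the male ones numbered 2 (adjusted p = 0.191), and with a pseudocount of 5 (adjusted p = 0.19). The Krt8 call is lost without CC011 (adjusted p = 0.0579), CC042 (adjusted p = 0.0702), the female control libraries numbered 2 (adjusted p = 0.222) or the male ones numbered 3 (adjusted p = 0.351), and under quantile normalization (adjusted p = 0.0746). The Krt19 call is lost without CC041 (adjusted p = 0.152) or the male control libraries numbered 3 (adjusted p = 0.13).

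Within groups of one strain, sex and diet, Krt8 and Krt18 moved as a pair. The deviations of all libraries from their group means (log2) had Pearson's r = 0.82 and Spearman's rho = 0.81, with a permutation p of 1e-05 each, the smallest that 100000 shuffles within groups can give. After adjustment over the 15 pairs of the 6 genes the p was 0.00015 for both. Among 12202 other genes, Krt18 ranked 1 for Krt8 and Krt8 ranked 1 for Krt18 by this r. Leaving out the 2 libraries with the most extreme Krt8 gave r = 0.80, and the 94 libraries of the 8 other strains gave 0.86.

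Ly6d also correlated with this pair within groups. It had r = 0.45 and rho = 0.42 with Krt18 (permutation, adjusted p = 0.00814 and 0.0012) and r = 0.40 and rho = 0.36 with Krt8 (adjusted p = 0.00814 and 0.00529). Krt18 ranked 114 and Krt8 246 of 12202 genes for Ly6d. Without the 2 libraries of most extreme Ly6d the r was 0.41 with Krt18 and 0.34 with Krt8. In the 94 libraries without CC003 and CC060 the r of Ly6d was 0.51 with Krt18 and 0.41 with Krt8 (permutation, adjusted p = 0.00075 and 0.00465). Between Ly6d and Krt23, the pair with the widest diet differences, r was -0.19 and rho -0.10 within groups (permutation, adjusted p = 0.36 and 0.568), and Krt23 ranked 9590. Krt23 and Krt18 had r = -0.33 (permutation, adjusted p = 0.036) with rho = -0.26 (adjusted p = 0.0681), and r = -0.23 without the 2 libraries of most extreme Krt23. Krt7 and Krt19 had r = 0.37 and rho = 0.43 (permutation, adjusted p = 0.00814 and 0.0012), and the remaining 9 pairs, whose r lay between -0.16 and 0.16, were not called. In the 94 libraries without CC003 and CC060, Krt23 and Krt18 had r = -0.41 and rho = -0.29 (permutation, adjusted p = 0.0167 and 0.076). There, Krt7 and Krt19 had r = 0.41 (permutation, adjusted p = 0.00465). Without CC011 female HF/HS 1 and CC060 male control 3, 2 libraries with extreme levels in their groups that were chosen after their values were seen, r was 0.86 for Krt8 with Krt18, 0.47 for Ly6d with Krt18 and -0.29 for Krt23 with Krt18. With a pseudocount of 0.1, neither Krt23 with Krt18 (r = -0.34, permutation, adjusted p = 0.0786) nor Krt7 with Krt19 (r = 0.17, adjusted p = 0.409) was called. Both values of a pair come from 1 library and share its scaling.

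**Figure D5:**
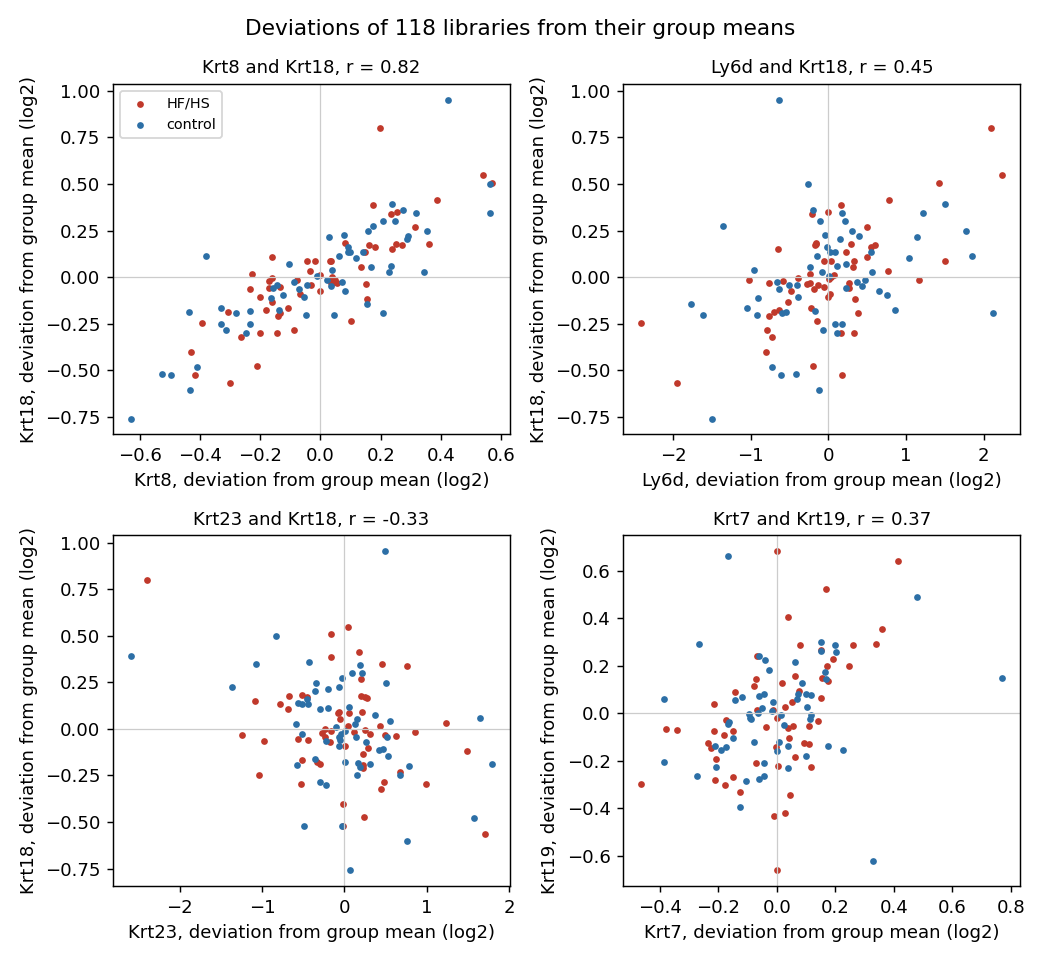
Deviation of each library from the mean of its strain, sex and diet group (log2) for 4 pairs of genes, with HF/HS in red and control in blue. Krt8 and Krt18 lie along a line (r = 0.82), Ly6d and Krt18 scatter more (r = 0.45), Krt23 and Krt18 slope down (r = -0.33), and Krt7 and Krt19 slope up (r = 0.37).

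Other keratins were nearly silent. Of 47 further keratin genes in the table, 0 passed the filter and 43 were at 0 in most libraries, and their summed level was 0.477 to 7.51 on HF/HS and 0.605 to 2.81 on control. Krt20, singled out after its values were seen, averaged 0.246 on HF/HS and 0.0237 on control and was at 0 in 78 libraries. Of 5 tested genes for other intermediate filaments, 1 rose, where 17.2% of all genes rose and 15.4% fell: Vim, the filament of mesenchymal cells, had 23.7 ± 10.2 on HF/HS and 19.3 ± 7.84 on control (0.27 ± 0.069, limma, adjusted p = 0.00138). The count of 1 became 2 without CC032, CC060, CC003 and CC060 together, or the male HF/HS libraries numbered 1. Of 10 tested genes for desmosomes and filament linkers, 2 rose and 1 fell, and over the alternatives 1 to 3 rose and 1 to 2 fell. The desmosomal cadherin Dsc2 rose by 0.16 ± 0.047 (limma, adjusted p = 0.00529, and 0.0913 with 1 value per strain) and the cadherin Dsg2 fell by 0.21 on the log2 scale (adjusted p = 8.33e-05).

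Of 15 genes for the partners of keratin in aggregates and for the heat shock response, 4 rose and 2 fell, where 17.2% of all genes rose and 15.4% fell. With 1 value per strain 2 rose and 0 fell, and the number that fell was 4 without CC011. It was 1 without CC032, CC042, CC043 or the male control libraries numbered 3, and under quantile normalization. Tgm2, a transglutaminase that cross-links proteins, had 98.5 ± 60.5 on HF/HS and 72.7 ± 21.1 on control and rose by 0.31 ± 0.050 (limma, adjusted p = 5.52e-07). The ubiquitin gene Ubb rose by 0.21 ± 0.038 (limma, adjusted p = 9.81e-06). The small heat shock gene Hspb1 rose by 0.40 ± 0.11 (adjusted p = 0.00352), a call lost in a fit of 1 value per strain (adjusted p = 0.142). Sqstm1, the ubiquitin receptor p62, named after its values were seen, rose by 0.09 ± 0.028 (adjusted p = 0.00802). The constitutive chaperone Hspa8 fell by 0.19 on the log2 scale (limma, adjusted p = 0.000696), which was lost under quantile normalization (adjusted p = 0.0713) and with 1 value per strain (adjusted p = 0.0629).

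Of 10 tested genes of the Ly6 family besides Ly6d, 7 rose and 0 fell, where 17.2% of all genes rose and 15.4% fell. The number that rose was 7 under quantile normalization and size factor scaling, 4 without CC043, 3 with 1 value per strain and 2 with a filter at a mean of 5, and 1 fell without a filter. Cd59a, an inhibitor of complement, had 57.7 ± 20.7 on HF/HS and 50.3 ± 18.5 on control and rose by 0.19 ± 0.027 (limma, adjusted p = 1.62e-08). Plaur, the urokinase receptor, rose by 0.23 ± 0.056 (adjusted p = 0.000776), and Ly6c1, a surface protein of leukocytes and endothelium, by 0.33 ± 0.098 (adjusted p = 0.00582). With 1 value per strain neither Plaur (adjusted p = 0.0545) nor Ly6c1 (adjusted p = 0.057) was called, and Ly6c1 was not called without CC043 (adjusted p = 0.0527). Ly6k is also the nearest tested neighbour of Ly6d, 33.3 kb away, and had 1.93 ± 4.01 on HF/HS and 0.776 ± 1.16 on control, with 0 in 28 libraries (0.33 ± 0.084, limma, adjusted p = 0.00134, and 0.116 with 1 value per strain). Of 15 genes within 100 kb of Ly6d, 3 were tested, and the neighbours are named for their place. Them6 rose by 0.21 (limma, adjusted p = 2.16e-05), and Jrk, at 0.04, did not pass (adjusted p = 0.227). The closest gene, D730001G18Rik at 7.34 kb, was at 0 in 99 libraries.

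By the pattern of 32 group means in the 8 other strains, which is a description with no test, the genes most like Ly6d were Enc1 (r = 0.85), Cd36 (0.84), Anxa2 (0.82), Tgm2 (0.81) and Sprr1a (0.81). For Krt8 they were Btc (0.88), Mogat1 (0.87), Atp9a (0.81), Rassf1 (0.81) and Scamp5 (0.80). For Krt18 they were Lonp2 and Hltf (0.77 each), Mcph1 (0.76), Fen1 and Actb (0.75 each), and for Krt23 Hps5 (0.73), Syce2 (0.72), Otud7b (0.70), Acsf3 (0.69) and Ddah1 (0.69). For the low Krt19 the leading gene was Pdcd2l (0.80), and for Krt7 it was Ttc37 (0.69). Among the 6 genes the same measure gave 0.65 for Ly6d with Krt8, 0.59 for Krt8 with Krt18, 0.44 for Ly6d with Krt23 and 0.42 for Ly6d with Krt18. Cd36 averaged 109 ± 62.4 on HF/HS and 51.4 ± 34.6 on control, and Mogat1 5.58 ± 4.98 on HF/HS and 1.2 ± 1.12 on control (SD, n = 59 each).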

How the data were processed

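Liver RNA was sequenced in 120 libraries (10 strains, 2 sexes, 2 diets), and groups were taken from the labels. Rows of the deposited table hold FPKM values that the authors rescaled. TopHat2 2.1.1, Bowtie2 2.2.5.0, Cufflinks 2.2.1 and mm10 are named per the submitters' processing notes, with no role or order, and the scaling formula, annotation release and any filter are not given in the sources used here. Per the labels' protocols, a ribosomal depletion kit and an mRNA kit were both used, without saying for which library. The values are not read counts, so depth is unknown and no counting interval is given, and a 0 can mark a failed estimate. Of 24883 rows, 1 with a missing value was dropped, and 2 identical columns were left out. The 12203 genes whose mean reached 1 over the libraries kept were tested as log2(value + 1), computed here from the deposited FPKM, with limma 3.58.1 in R 4.3.3: 40 group means, a trended robust prior, two-sided tests, Benjamini-Hochberg adjustment over all genes tested, and a call at an adjusted p under 0.05. Folds on this scale understate changes of low genes. For Krt7 and Krt19 the same fit was run without a filter (20947 genes), an alternative added after seeing the data. F tests compared the strains in the diet difference and on the control diet (in 8 strains), and that of the diet difference is not given for the 6 genes, nor is a test of their diet difference between the sexes, since the diet contrast served to choose them. Correlations used within-group deviations and 100000 permutations within groups (numpy 2.4.6, pandas 2.3.3 in Python 3.11.15). Scripts were tested on simulated data. Coordinates are the table's, on mm10, with exons and overlaps from GENCODE M21. The starts given for Krt18 and Krt7 equal the last base of their RefSeq windows, so the table's starts look counted from 0. The 6 genes, the lists and the tests were chosen with earlier results of these data known. Named genes are the 6, up to 4 tested genes with the lowest p for diet per list, and the 5 genes with the highest correlation of group means per gene, without repeated symbols or Gm, Rik, -ps and LOC names. Neighbours of Ly6d are named by position, and other genes outside this rule (Krt20, Sqstm1, Cldn4, Sctr) were chosen after their values were seen. Alternatives were pseudocounts of 0.1 and 5, no filter or a filter at 5, quantile normalization, size factor scaling, an untrended prior, a block for library number, 1 value per strain, all 120 columns, and leaving out strains or libraries. Some genes of the marker lists are not reported singly here.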

Additional observations from a re-analysis of the deposited data

Results flagged for a closer look

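Krt18 had groups in which every HF/HS library lay above every control library and groups in which every one lay below. The HF/HS minus control difference (log2) was 1.12 in CC043 males, 0.949 in CC043 females, 0.858 in CC032 males, 0.743 in CC032 females and 0.729 in CC040 males. It was -0.222 in CC013 females and -0.463 in CC060 females. The low Krt19 had 1 group of each kind, at 0.425 in CC032 males and -0.37 in CC011 females. These differences between groups were not tested. Over all genes tested, 11.1% of gene and group combinations lay wholly above and 10.6% wholly below.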

How the results depend on the processing

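No called value reversed its direction in any of the 34 alternatives, and the calls on sex and strain not named in this section stayed on their side of the threshold. A pseudocount of 5 gave F = 1.504 for Ly6d between strains on the control diet (adjusted p = 0.19), and a pseudocount of 0.1 gave r = -0.34 for Krt23 with Krt18 (adjusted p = 0.0786) and 0.17 for Krt7 with Krt19 (adjusted p = 0.409). Quantile normalization gave F = 1.979 for Krt8 between strains on the control diet (adjusted p = 0.0746) and a sex difference on the control diet of 0.1571 for Krt7 (adjusted p = 0.036). Strain differences in the diet effect were called for 1093 genes without a filter and 450.0 at a filter of 5, against 676. With 1 value per strain, 1828 genes were called for diet, 3366 for sex on HF/HS, 3148 for sex on control and 0 for the male minus female diet effect, and the sex difference was -0.8831 for Ly6d and 0.2717 for Krt18 on HF/HS and 0.1106 for Krt7 on control (adjusted p = 0.0439). Without CC003 and CC060, 60.0 genes were called for the male minus female diet effect, against 107.

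Leaving out libraries by number or single strains gave these ranges. Sex on HF/HS was -1.162 to -0.583 for Ly6d, -0.4726 to -0.009508 for Krt23 and 0.2179 to 0.3547 for Krt18, and sex on control -0.7484 to -0.4264 for Krt23. The F between strains on control was 1.336 to 3.408 for Ly6d, 1.161 to 3.445 for Krt8 and 1.838 to 4.819 for Krt19. The count of genes was 34 to 132 for the male minus female diet effect and 283 to 994 for strain differences in the diet effect. The cause of these shifts was not tested. Of the listed genes' values 18 lost and 13 gained a call, and 46 of the lists' counts moved by over 1.5 times.

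Whether the library numbers pair the samples cannot be settled from the values. Same-numbered HF/HS and control libraries had a median r of -0.012 over 58 pairs, from -0.222 to 0.364, with 9 pairs over 0.1. With the number as a block, no call on the 6 genes changed, and the male minus female difference of Ly6d on HF/HS was -0.8811 or -0.8832. Depth is unknown, and Krt7 and Krt19 had means under 1.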
